A study of Mus musculus with 3 samples.

Results

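The 44 genes described here are 34 immediate early genes and 10 heat shock genes, chosen by symbol from 31053 genes in the deposited count tables. All 44 symbols were found. They were chosen with earlier results of these libraries known, and followed in each library within mesenchymal cells, macrophages, T cells and B cells, to ask whether a difference between libraries was shared by all of these cells. The cells came from ectopic tissue masses, which form around an implant outside the skeleton, in CD1 mice, an outbred strain, on day 5 after implantation. In the antibody group the implant was Matrigel, a gel of basement membrane proteins, mixed with recombinant human BMP2, and the mice received an antibody that neutralizes activin A (systemically). The IgG group had the same BMP2 implant in mice that received pre-immune control IgG. The Matrigel group had the gel without BMP2, and the labels name no IgG for it, and in consequence the effects of BMP2 and of IgG cannot be told apart in a comparison with it. Each group was 1 library of minced and dissociated masses. Age and sex, the number of animals and the time and temperature of dissociation were not given in the sources used here.

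Immediate early genes are switched on within minutes of a stimulus such as serum, a cytokine, stretch or injury, from transcription factors that the cell already holds, and their RNAs decay fast. They include the AP-1 subunits, zinc finger factors and feedback inhibitors of kinase and NF-kB signalling, and mincing or enzymatic dissociation of a tissue is known to switch them on as well. Heat shock genes encode chaperones, which hold or refold unfolded proteins, and are driven by the factor HSF1 when proteins unfold.

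After filters and removal of doublets there were 5675 antibody cells, 5669 IgG cells and 8541 Matrigel cells, from libraries of 38163880 (antibody), 46317250 (IgG) and 44252421 (Matrigel) UMIs (molecular tags, each counting 1 captured molecule). Mesenchymal cells, with at least 1% of UMIs from Col1a1, Col1a2 and Col3a1, numbered 591, 1478 and 1982 in the antibody, IgG and Matrigel libraries, at median depths of 19185, 17191 and 8752.5 UMIs. Macrophages, under 1% and with a UMI of Csf1r or Adgre1, numbered 3034, 3111 and 5563 in the same order, at medians of 4835, 3666 and 3079 UMIs. T cells, with at least 2 UMIs over their markers, numbered 895 in the antibody, 224 in the IgG and 87 in the Matrigel library, at medians of 1862, 2186 and 1352 UMIs. B cells numbered 508 in the antibody, 6 in the IgG and 1 in the Matrigel library, so B cells could be described in the antibody library alone. All 8 mesenchymal markers, all 8 macrophage markers and all 6 T cell markers were detected in their own class in each library, as were the 4 B cell markers in antibody B cells. For the collagen genes, Csf1r, Adgre1 and the T and B cell markers this follows in part from the class rules, so it does not test them. The T class of the Matrigel library was unlike the others in its markers, with Cd3d at 715, 705 and 145 CPM and Trac at 517, 389 and 123 CPM in antibody, IgG and Matrigel T cells, against Trbc1 at 669, 591 and 927 CPM. The T class also held NK cell markers, at a summed 784, 2147 and 1391 CPM (counts per 1000000 UMIs of the class) in the antibody, IgG and Matrigel libraries, and the mesenchymal class held cartilage markers at 699, 3070 and 54.6 CPM. Csf1r and Adgre1 are at 0 in T and B cells by construction. Of 21385 barcodes, 42 occurred in 2 libraries. A Col1a1 UMI was found in 6.30% of antibody, 19.0% of IgG and 14.5% of Matrigel macrophages after each cell was thinned to 1000 UMIs, and whether free RNA or doublets left it was not tested. With 1 library per group there is no replicate and no test. Ratios compare these libraries, and their 95% intervals cover counting error only.

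Promoters were searched for elements that are known to bind factors which switch such genes on. Windows of 300 bases, 250 before and 50 after a start in RefSeq (GRCm38), were found for 36 of the 44 genes. The heat shock element, searched on both strands as GAANNTTC or TTCNNGAA, occurred in 7 of 8 heat shock genes (87.5%) and 3 of 28 immediate early genes (Egr2, Fosl2 and Jun), against 17.0% of all genes in the table. Some genes had several windows. By window it was 8 of 13 (61.5%) for heat shock and 3 of 34 (8.82%) for immediate early genes, against 15.1% of all windows. The 7 genes include the near-identical Hspa1a and Hspa1b, and Hspd1 and Hspe1, whose spans overlap, so they are not independent. The CArG box, bound by serum response factor, occurred in Dusp5, Egr2 and Zfp36 (10.7% of the 28 immediate early genes), against 1.81% of all genes. The CRE TGACGTCA, bound by CREB, occurred in Btg2 and Dusp1 (7.14%, against 2.03%), and the AP-1 letters TGANTCA in Tnfaip3 and Ubb (7.14%, against 8.97%). The CRE and AP-1 letters cannot share bases, the 2 forms of the heat shock element can, and a match is a description of the sequence, not a site of binding. Below are the 200 bases that end 51 bases before the start for a pair of chaperone genes and for 2 feedback or transcription factor genes that differed between the libraries, with the element in capitals.
Hspa1a, heat shock element (chr17:34972207-34972406, minus strand): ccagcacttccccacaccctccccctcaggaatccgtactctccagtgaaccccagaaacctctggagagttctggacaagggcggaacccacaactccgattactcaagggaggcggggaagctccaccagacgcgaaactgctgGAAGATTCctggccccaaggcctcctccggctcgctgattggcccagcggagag
Hspa1b, heat shock element (chr17:34959289-34959488, minus strand): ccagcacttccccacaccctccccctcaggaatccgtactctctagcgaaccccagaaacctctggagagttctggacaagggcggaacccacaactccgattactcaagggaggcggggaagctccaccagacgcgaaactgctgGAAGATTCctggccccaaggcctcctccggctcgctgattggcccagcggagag
Dusp1, CRE (chr17:26508523-26508722, minus strand): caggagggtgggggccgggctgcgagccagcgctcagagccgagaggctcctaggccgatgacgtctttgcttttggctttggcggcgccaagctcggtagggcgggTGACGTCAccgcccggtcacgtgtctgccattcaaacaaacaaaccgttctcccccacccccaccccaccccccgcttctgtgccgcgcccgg
Egr2, CArG box (chr10:67537619-67537818, plus strand): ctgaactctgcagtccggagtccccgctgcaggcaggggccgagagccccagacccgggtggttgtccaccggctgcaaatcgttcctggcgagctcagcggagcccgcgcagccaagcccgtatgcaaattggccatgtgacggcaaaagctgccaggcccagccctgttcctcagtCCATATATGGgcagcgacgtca
No exon of GENCODE M21 overlaps these 4 stretches. The Dusp1 stretch lies in an intron of 1 longer transcript and the Egr2 stretch in introns of 2. Hspa1a and Hspa1b differ at 4 of 300 bases, C44T, T47C, T249G and C276T, with Hspa1a first and positions counted from 1 at the 5′ end of the window. The first 2 of these lie in the printed stretch, and the heat shock element is the same in both. The printed genes span chr17:34969190-34972156 (Hspa1a), chr17:34956436-34959238 (Hspa1b), chr17:26505590-26562128 (Dusp1) and chr10:67535475-67542188 (Egr2), and among others described below Fos spans chr12:85473890-85477273, Klf2 chr8:72319033-72321656 and Ubb chr11:62551171-62553213.

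Set against the IgG library, the antibody library held higher levels of most immediate early genes in every class. The comparison addresses the effect of neutralizing activin A where BMP2 is in the implant. In mesenchymal cells, 20 of 34 measured immediate early genes (at least 10 UMIs in 1 of the libraries) were at least 1.5-fold higher and 2 lower, where 9.88% of all genes measured were higher and 12.7% lower. Their median log2 ratio was 0.74, against -0.07 over all measured genes. In macrophages 19 of 34 were higher and 0 lower (all genes: 6.97% and 12.2%), with a median of 0.62 against -0.12. In T cells 25 of 33 were higher and 0 lower (all genes: 13.8% and 22.5%), with a median of 0.92 against -0.25. The remaining cells, of none of these classes, had 30 of 34 higher and 1 lower (all genes: 10.8% and 18%), with a median of 1.005 against -0.10. Their mix differed between the libraries: neutrophil markers summed to 2199.8 CPM in antibody and 1254 CPM in IgG remaining cells, dendritic cell markers to 175 and 313 CPM and cartilage markers to 72.2 and 945 CPM, and the part of this in the result was not tested. Heat shock genes had medians near those of all genes in mesenchymal cells and macrophages, and above that of all genes in T cells. There were 3 of 10 higher in mesenchymal cells, 2 of 10 in macrophages and 2 of 9 in T cells, with 1 lower in T cells and 0 in the others. The medians were 0.06, -0.17 and -0.01, against -0.07, -0.12 and -0.25 over all genes.

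Of 33 immediate early genes measured in all 3 classes, 13 were at least 1.5-fold higher in the antibody library in mesenchymal cells, macrophages and T cells alike: Fos, Fosb, Atf3, Egr1, Egr2, Egr3, Klf2, Klf4, Ier2, Dusp1, Dusp2, Gadd45a and Ubb. Over all genes this share was 0.804%, or 74 of 9202. None of the 33 was lower in all 3 classes, where 0.402% of all genes were. Hspa1a and Hspa1b were the heat shock genes higher in all 3 classes, 2 of 9 measured. These 15 genes were 20.3% of the 74. The ratio was above 1 in all 3 classes for 23 of 33 immediate early genes (69.7%, against 9.60% of all genes). At 6 of the 13 immediate early genes 1 or more classes held less than 10% of the level of some other class in that library, a level that free RNA could give. For antibody over IgG, 14 immediate early genes were below this limit in mesenchymal cells, namely Junb, Atf3, Egr2, Egr3, Nr4a1, Nr4a3, Ier2, Ier5, Dusp2, Dusp5, Zfp36, Btg2, Tnfaip3 and Gadd45a. The immediate early genes below this limit were Fosl1, Egr3 and Dusp2 in macrophages and Fosl1 and Atf3 in T cells. The 7 of the 13 that were above it in every class were Fos, Fosb, Egr1, Klf2, Klf4, Dusp1 and Ubb. Cd79a, a B cell gene, was also among the 74, with 22, 81 and 11 UMIs in antibody and 8, 6 and 0 UMIs in IgG mesenchymal cells, macrophages and T cells, and the antibody library had 508 B cells. All 4 B cell markers were detected in each class of the antibody library, summed to 2.75 CPM in mesenchymal cells, 25.8 CPM in macrophages and 13.4 CPM in T cells, against 4913 CPM in B cells. In the IgG library the sums were 0.408, 18.5 and 8.24 CPM. The part of RNA from B cells in these results was not tested.

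**Figure D1:**
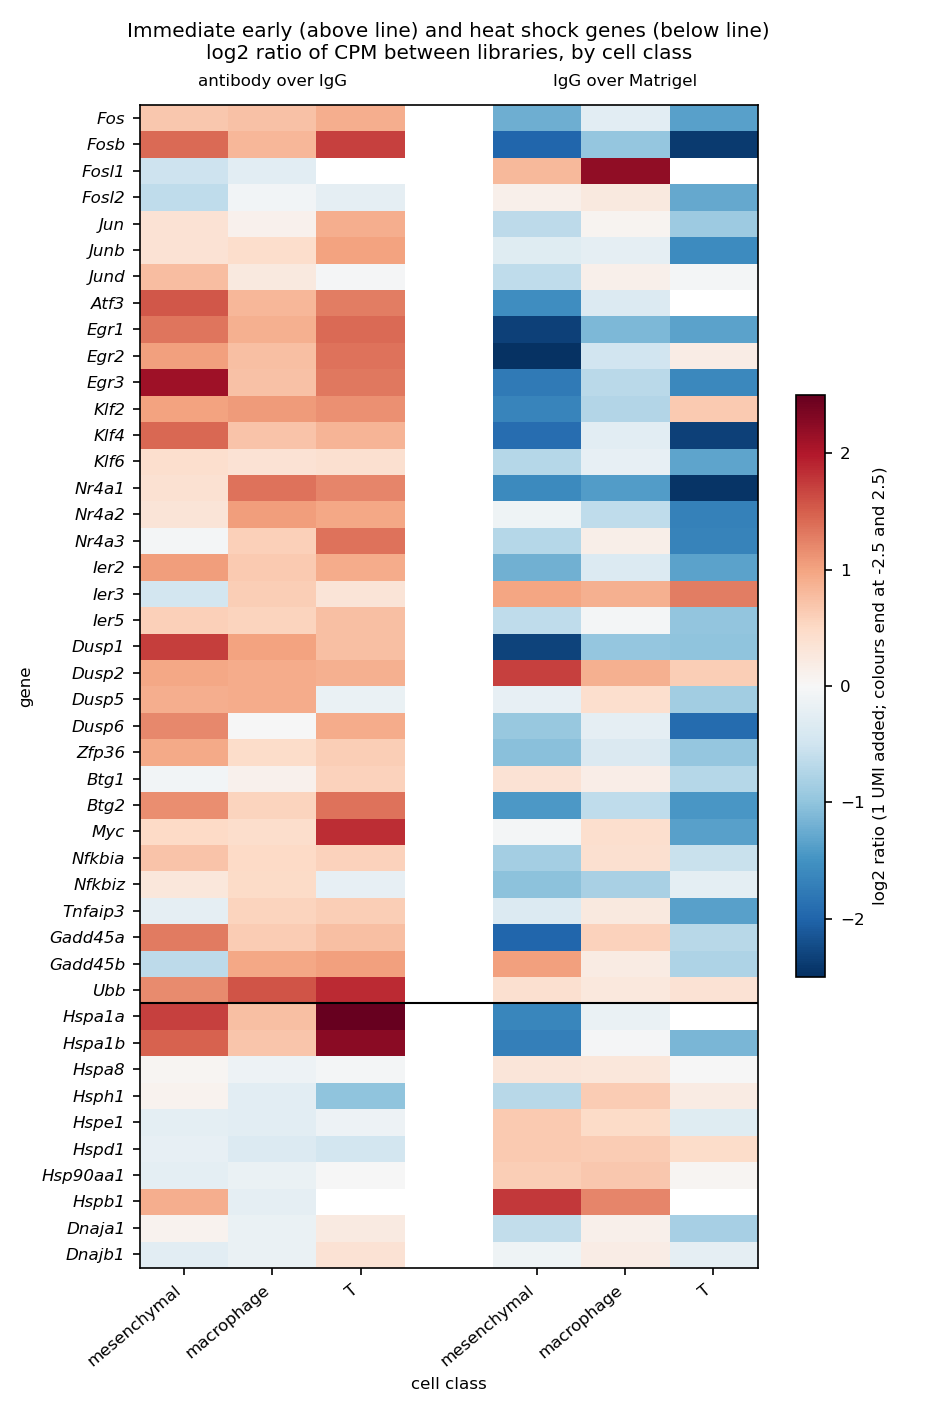
Log2 ratio of CPM for each of the 44 genes (rows) in mesenchymal cells, macrophages and T cells (columns), antibody over IgG at left and IgG over Matrigel at right, with 1 UMI added to each sum; white cells were not measured. Red runs across all 3 classes at left for most immediate early genes, with Gadd45b the gene past 1.5-fold in opposite directions, and at left the heat shock genes past 1.5-fold are Hspa1a, Hspa1b, Hspb1 in mesenchymal cells and Hsph1 in T cells. At right, 8 of 10 heat shock genes pass it in mesenchymal cells, 4 higher and 4 lower.

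Set against the Matrigel library, the IgG library held lower levels of most immediate early genes in mesenchymal and T cells and of fewer in macrophages. The comparison addresses BMP2 in the implant, together with IgG. It shares the IgG library with the first comparison, so a value peculiar to that library enters both, with opposite sign. In mesenchymal cells 4 of 34 immediate early genes were higher and 22 lower (all genes: 16.6% and 21.1%), with a median log2 ratio of -0.78 against -0.03 over all measured genes. In T cells 3 of 32 were higher and 23 lower (all genes: 24.1% and 18.5%), with a median of -1.14 against -0.14. The 87 Matrigel T cells limit this, their T cell markers differed from those of the IgG T cells as given above, and 10 of them held 57.1% of their Fos UMIs. With each gene's 10 highest cells left out of each library, 9 of the 44 genes were higher and 12 lower in T cells, against 3 and 25 with all cells. Since 10 of 87 is a larger share than 10 of 224, this lowers the Matrigel level more by construction. In macrophages 3 of 34 were higher and 9 lower (all genes: 13.2% and 13.5%), with a median of -0.21 against -0.01. The remaining cells had 5 of 34 higher and 10 lower (all genes: 25.4% and 10.5%), with a median of -0.30 against 0.15. Their mix differed here too. Neutrophil markers summed to 1254 and 47.1 CPM in IgG and Matrigel remaining cells, cartilage markers to 945 and 6.21 CPM and dendritic cell markers to 313 and 460 CPM. The part of this in the result was not tested. Of 32 immediate early genes measured in all 3 classes, 6 were lower in each, namely Fosb, Egr1, Egr3, Nr4a1, Dusp1 and Btg2, against 0.54% of all genes (37 of 6846). Ier3 and Dusp2 were higher in each, against 1.53% of all genes, though Dusp2 in mesenchymal cells rested on 13 and 2 UMIs. Dusp2 was at a level that free RNA could give in mesenchymal cells and macrophages. Of the heat shock genes 4 of 10 were higher and 4 lower in mesenchymal cells, 4 of 10 higher and 0 lower in macrophages and 0 of 8 higher and 2 lower in T cells, with medians of 0.09, 0.38 and -0.11, and of 8 measured in all 3 classes 0 were past 1.5-fold the same way in each.

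Among the 8 AP-1 subunits, which pair up as Fos or Jun family dimers to bind DNA, Fos, Fosb and Atf3 were higher in the antibody than in the IgG library in all 3 classes, and Fosl2 was lower in mesenchymal cells. Fos stood at 98.0 CPM in antibody mesenchymal cells, 61.7 CPM in IgG mesenchymal cells and 143 CPM in Matrigel mesenchymal cells. Macrophages held 669.8 CPM of Fos in antibody tissue, 406 CPM in IgG tissue and 485 CPM in Matrigel tissue. T cells held 450.3 CPM of Fos with the antibody, 237 CPM with IgG and 609 CPM with Matrigel alone. Fos was lowest in the IgG library in each class. The antibody over IgG ratio was 1.59 (1.47 to 1.71) in mesenchymal cells, 1.65 in macrophages and 1.90 in T cells. Fosb, a close relative of Fos, had ratios of 2.66, 1.78 and 3.35 in the same order, and was 3.94-, 1.95- and 5.30-fold lower in the IgG than in the Matrigel library. Junb, a partner of Fos that also restrains Jun, was at 2134, 1064 and 3180.2 CPM in antibody, IgG and Matrigel T cells. Its antibody over IgG ratio was 2.00 there (1.85 to 2.18), but 1.28 in mesenchymal cells and 1.35 in macrophages, under 1.5. Jun was past 1.5-fold in T cells (ratio 1.92) and Jund in mesenchymal cells (ratio 1.70). Atf3, a stress-induced subunit, was at 261, 147 and 187 CPM in antibody, IgG and Matrigel macrophages, and its T cell ratio rested on 25 antibody and 2 IgG UMIs. In mesenchymal cells and T cells Atf3 was at a level that free RNA could give.

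Fosl1, which lacks the activation domain of Fos, was the immediate early gene found mainly in mesenchymal cells. Fosl1 stood at 26.0 CPM in antibody mesenchymal cells, 37.4 CPM in IgG mesenchymal cells and 21.3 CPM in Matrigel mesenchymal cells. It was lower in the antibody than in the IgG cells (ratio 0.695, 0.612 to 0.787), within 1.5-fold, and 1.76-fold higher in the IgG than in the Matrigel cells. Macrophages held 1.13, 1.36 and 0.259 CPM in the antibody, IgG and Matrigel libraries, from 20 UMIs or fewer, a level that free RNA could give. Fosl2 was 1.56-fold lower in antibody than in IgG mesenchymal cells (1.45 to 1.69), at 69.6 and 109 CPM, and its ratios in macrophages and T cells were 0.951 and 0.871.

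All 6 zinc finger factors had antibody over IgG ratios above 1 in each class, and 5 of them, all but Klf6, were past 1.5-fold in each. Egr1 to Egr3 are growth-factor-induced factors. Egr1 stood at 70.5 CPM in antibody mesenchymal cells, 28.0 CPM in IgG mesenchymal cells and 141 CPM in Matrigel mesenchymal cells. Macrophages held 84.3 CPM of Egr1 in antibody tissue, 45.4 CPM in IgG tissue and 98.7 CPM in Matrigel tissue. T cells held 330.5 CPM of Egr1 with the antibody, 122 CPM with IgG and 304 CPM with Matrigel alone. As for Fos, the IgG library was lowest in each class. The antibody over IgG ratio of Egr1 was 2.52 (2.28 to 2.78), 1.86 (1.69 to 2.04) and 2.71 (2.13 to 3.49) in mesenchymal cells, macrophages and T cells. Egr1 was 5.02-, 2.17- and 2.496-fold lower in IgG than in Matrigel mesenchymal cells, macrophages and T cells. Egr2, whose upstream sequence is printed above with its CArG box, had antibody over IgG ratios of 2.04, 1.69 and 2.68, the first at 8.41 and 4.12 CPM, under 10% of the level in another class. Egr3 was at 23.3, 5.38 and 18.5 CPM in antibody, IgG and Matrigel mesenchymal cells, and its antibody over IgG ratio of 4.34 (3.55 to 5.33) was the highest of the 34 in that class, also at under 10% of the level in another class. In macrophages Egr3 was under 10% of another class's level as well.

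Klf2, a factor that keeps T cells quiescent and is induced by flow in endothelium, was past 1.5-fold in all 3 classes between the antibody and IgG libraries. Klf2 stood at 94.1 CPM in antibody mesenchymal cells, 47.1 CPM in IgG mesenchymal cells and 149 CPM in Matrigel mesenchymal cells. Macrophages held 296 CPM of Klf2 in antibody tissue, 141 CPM in IgG tissue and 234 CPM in Matrigel tissue. T cells held 402 CPM of Klf2 with the antibody, 179.6 CPM with IgG and 109 CPM with Matrigel alone. The antibody library was above the IgG library in each class, by 2.00-fold in mesenchymal cells, 2.09-fold in macrophages and 2.24-fold in T cells. The Matrigel library was above the IgG library in mesenchymal cells and macrophages but below it in T cells, from 15 UMIs there. Klf4 was at 272, 101 and 379.6 CPM in antibody, IgG and Matrigel mesenchymal cells, an antibody over IgG ratio of 2.69 and an IgG level 3.76-fold lower than in Matrigel cells. Klf6 had antibody over IgG ratios of 1.34, 1.29 and 1.33.

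**Figure D2:**
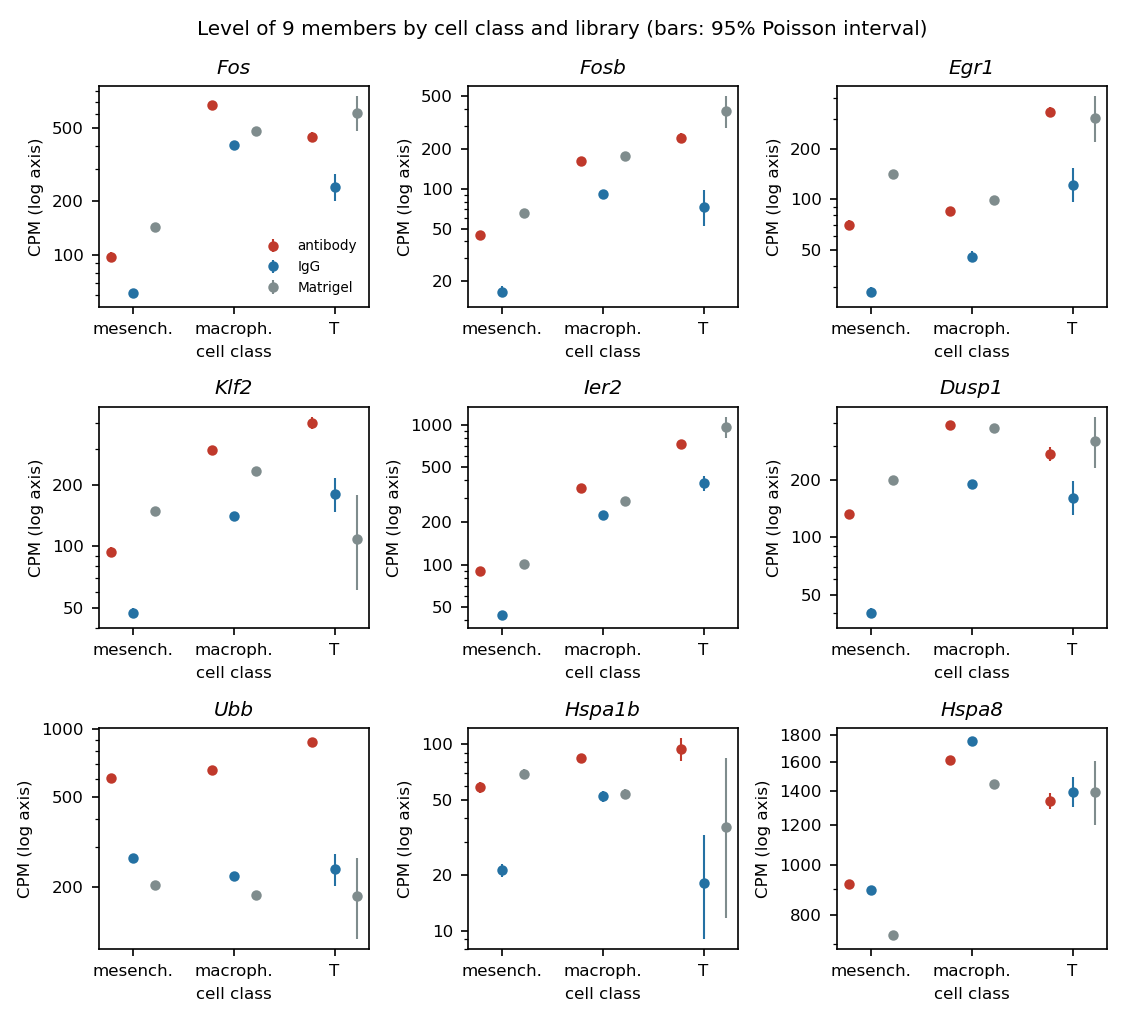
Level in CPM (log axis, each panel with its own range) of 9 of the genes in mesenchymal cells, macrophages and T cells, with antibody, IgG and Matrigel libraries from left to right and 95% Poisson bars for counting error. The IgG point is the lowest of the 3 in every class for Fos, Fosb, Egr1, Ier2 and Dusp1, Ubb is highest in the antibody library in every class, and Hspa8 lies between 729 and 1757 CPM throughout.

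The 3 Nr4a genes encode nuclear receptors that need no known ligand and mark recent antigen receptor signalling in lymphocytes. They were past 1.5-fold higher in the antibody library in macrophages and T cells but not in mesenchymal cells. Nr4a1 stood at 8.49 CPM in antibody mesenchymal cells, 6.53 CPM in IgG mesenchymal cells and 19.9 CPM in Matrigel mesenchymal cells. Macrophages held 76.6 CPM of Nr4a1 in antibody tissue, 29.8 CPM in IgG tissue and 78.7 CPM in Matrigel tissue. T cells held 212 CPM of Nr4a1 with the antibody, 89.0 CPM with IgG and 485 CPM with Matrigel alone. The antibody over IgG ratio of Nr4a1 was 2.57 (2.30 to 2.87) in macrophages and 2.38 (1.79 to 3.21) in T cells, and 1.30 (1.01 to 1.66) in mesenchymal cells, where its level stayed below 10% of another class's. The IgG library was 3.04-, 2.64- and 5.46-fold below the Matrigel library in mesenchymal cells, macrophages and T cells. Nr4a2 and Nr4a3 had antibody over IgG ratios of 1.25 and 0.946 in mesenchymal cells, 2.07 and 1.51 in macrophages, and 2.01 and 2.66 in T cells. T cells of the IgG library held 25 or fewer UMIs of each of these.

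Of the 3 Ier genes, named as immediate early response genes, Ier2 was lowest in the IgG library in each class, as Fos was, and Ier3 in the Matrigel library. Ier2 was at 90.3, 43.9 and 101 CPM in antibody, IgG and Matrigel mesenchymal cells, and its antibody over IgG ratios were 2.06, 1.57 and 1.92 in mesenchymal cells, macrophages and T cells. Ier2 and Ier5 in mesenchymal cells were at a level that free RNA could give. Ier5 was past 1.5-fold in mesenchymal cells and T cells (1.51 and 1.69) and at 1.48 in macrophages. Ier3 stood at 302 CPM in antibody mesenchymal cells, 417 CPM in IgG mesenchymal cells and 209.6 CPM in Matrigel mesenchymal cells. Macrophages held 914 CPM of Ier3 in antibody tissue, 595 CPM in IgG tissue and 321 CPM in Matrigel tissue. T cells held 262 CPM of Ier3 with the antibody, 209 CPM with IgG and 79.7 CPM with Matrigel alone. Ier3 is an NF-kB target that protects cells from death. The IgG library was above the Matrigel library by 1.99-fold (1.92 to 2.06) in mesenchymal cells, 1.86-fold in macrophages and 2.63-fold in T cells, the last from 127 and 11 UMIs. Between the antibody and IgG libraries its ratio was 0.725 in mesenchymal cells, within 1.5-fold, against 1.54 in macrophages.

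The 4 Dusp genes encode phosphatases that switch MAP kinases off, a feedback on the pathways that induce this group of genes. Dusp1 stood at 132 CPM in antibody mesenchymal cells, 39.97 CPM in IgG mesenchymal cells and 199.7 CPM in Matrigel mesenchymal cells. Macrophages held 387 CPM of Dusp1 in antibody tissue, 191 CPM in IgG tissue and 374 CPM in Matrigel tissue. T cells held 274 CPM of Dusp1 with the antibody, 161 CPM with IgG and 319 CPM with Matrigel alone. The IgG library was lowest in each class, and the gap to the antibody library was 3.29-fold (3.05 to 3.56) in mesenchymal cells, 2.02-fold in macrophages and 1.70-fold in T cells. Against the Matrigel library, Dusp1 was 5.00-fold lower (4.67 to 5.35) in IgG mesenchymal cells, and 1.95- and 1.97-fold lower in macrophages and T cells. Its CRE is in the sequence printed above. Dusp2, a phosphatase of immune cells, had antibody over IgG ratios of 1.90 in macrophages and 1.87 in T cells. Its macrophage UMIs and its 12 antibody and 13 IgG mesenchymal UMIs are at a level that free RNA could give. Dusp5, in mesenchymal cells also at such a level, was past 1.5-fold there and in macrophages (1.88 and 1.91) and at 0.892 in T cells. Dusp6, which acts on ERK, was past it in mesenchymal cells and T cells (2.29 and 1.96), with 130.4 CPM in antibody and 131 CPM in IgG macrophages.

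Zfp36, which binds AU-rich elements and hastens RNA decay, and Btg2, an antiproliferative gene, were past 1.5-fold between the antibody and IgG libraries in mesenchymal cells and T cells, in mesenchymal cells at a level that free RNA could give. Together with Btg1, a relative of Btg2, they were within it in macrophages, at ratios of 1.38 for Zfp36, 1.08 for Btg1 and 1.48 for Btg2. Btg2 was at 587, 227 and 623 CPM in antibody, IgG and Matrigel T cells, a ratio of 2.58 (2.16 to 3.10) for antibody over IgG. The IgG level of Btg2 was 2.72-, 1.55- and 2.74-fold below the Matrigel level in mesenchymal cells, macrophages and T cells. Myc, a driver of growth, was past 1.5-fold in T cells alone of the 3 classes, with 141 CPM in the antibody and 37.9 CPM in the IgG library (3.71, 2.43 to 5.95). The other ratios of Myc were 1.41 in mesenchymal cells and 1.36 in macrophages, and no test of the difference between classes was possible.

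Of the 3 NF-kB feedback genes, 2 passed 1.5-fold between the antibody and IgG libraries, each in 1 class. Nfkbia, which encodes the inhibitor that holds NF-kB in the cytoplasm, had antibody over IgG ratios of 1.64 in mesenchymal cells, 1.40 in macrophages and 1.49 in T cells, so that mesenchymal cells alone passed 1.5-fold. Tnfaip3, a ubiquitin-editing enzyme that ends NF-kB signalling, passed in T cells alone, at 1.55. Nfkbiz passed in none of the 3, with ratios between 0.866 and 1.39. In the other comparison Nfkbiz was 2.03-fold lower in IgG than in Matrigel mesenchymal cells and 1.76-fold lower in macrophages, while Nfkbia was 1.80-fold lower in mesenchymal cells and within 1.5-fold in the others.

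The 2 Gadd45 genes, induced by DNA damage and stress and, for Gadd45b, by TGF-beta family ligands, were past 1.5-fold in opposite directions in mesenchymal cells of the antibody against the IgG library. Gadd45b stood at 179 CPM in antibody mesenchymal cells, 280.1 CPM in IgG mesenchymal cells and 138 CPM in Matrigel mesenchymal cells. Macrophages held 391 CPM of Gadd45b in antibody tissue, 199 CPM in IgG tissue and 173 CPM in Matrigel tissue. T cells held 766 CPM of Gadd45b with the antibody, 376 CPM with IgG and 637 CPM with Matrigel alone. Gadd45b was 1.57-fold lower (1.49 to 1.64) in antibody than in IgG mesenchymal cells, and 1.97- and 2.04-fold higher in macrophages and T cells. No other of the 44 genes passed 1.5-fold in opposite directions in this comparison, as 3.66% of all genes did. Gadd45a was at 9.91, 4.05 and 16.0 CPM in antibody, IgG and Matrigel mesenchymal cells, with antibody over IgG ratios of 2.45, 1.55 and 1.76. For antibody over IgG, its mesenchymal level was one that free RNA could give. Ubb encodes a chain of ubiquitin repeats and supplies ubiquitin under stress. Ubb stood at 607 CPM in antibody mesenchymal cells, 268 CPM in IgG mesenchymal cells and 203 CPM in Matrigel mesenchymal cells. Macrophages held 663 CPM of Ubb in antibody tissue, 222 CPM in IgG tissue and 184 CPM in Matrigel tissue. T cells held 876 CPM of Ubb with the antibody, 239 CPM with IgG and 181 CPM with Matrigel alone. The antibody library was highest in each class, by 2.27-fold (2.19 to 2.34), 2.98-fold (2.87 to 3.10) and 3.67-fold (3.09 to 4.37) over the IgG library in mesenchymal cells, macrophages and T cells. The IgG library was within 1.5-fold of the Matrigel library, at ratios of 1.32, 1.21 and 1.32.

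Of the heat shock genes, the stress-induced Hsp70 pair Hspa1a and Hspa1b was past 1.5-fold between the antibody and IgG libraries in all 3 classes. They are near-identical copies on chromosome 17, among which the counting could divide reads, so they are given as a sum. Hspa1a and Hspa1b together stood at 111 CPM in antibody mesenchymal cells, 37.2 CPM in IgG mesenchymal cells and 119 CPM in Matrigel mesenchymal cells. Macrophages held 191 CPM of Hspa1a and Hspa1b together in antibody tissue, 116 CPM in IgG tissue and 125 CPM in Matrigel tissue. T cells held 141 CPM of Hspa1a and Hspa1b together with the antibody, 23.1 CPM with IgG and 65.2 CPM with Matrigel alone. The antibody library was above the IgG library in each class, by 2.995-fold (2.76 to 3.25) in mesenchymal cells, 1.65-fold (1.55 to 1.75) in macrophages and 6.12-fold (3.59 to 11.3) in T cells. The T cell ratio rests on 305 and 14 UMIs. In the other comparison the pair was 3.21-fold lower (2.98 to 3.46) in IgG than in Matrigel mesenchymal cells and within 1.5-fold in macrophages, at a ratio of 0.929. In T cells the IgG over Matrigel ratio was 0.354, from 14 and 9 UMIs. Taken singly, Hspa1a had antibody over IgG ratios of 3.28, 1.68 and 9.55, and Hspa1b of 2.78, 1.61 and 5.18. Hspa1a was found in 1.34% and Hspa1b in 4.91% of IgG T cells, so their single T cell ratios rest on few UMIs. The division of reads between the copies can also enter the single ratios.

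The other heat shock genes, Hspb1 apart, were mostly within 1.5-fold between the antibody and IgG libraries. Hspa8 stood at 919 CPM in antibody mesenchymal cells, 894 CPM in IgG mesenchymal cells and 729 CPM in Matrigel mesenchymal cells. Macrophages held 1609 CPM of Hspa8 in antibody tissue, 1757 CPM in IgG tissue and 1447 CPM in Matrigel tissue. T cells held 1339 CPM of Hspa8 with the antibody, 1392 CPM with IgG and 1391 CPM with Matrigel alone. The antibody over IgG ratios of Hspa8, the constitutive Hsp70, were 1.03, 0.916 and 0.962, all within 1.5-fold. Hsp90aa1, Hspd1 and Hspe1, which encode cytosolic Hsp90 and the mitochondrial Hsp60 and its partner, had ratios between 0.734 and 0.995 in the 3 classes. Dnaja1 and Dnajb1, the J proteins that start the Hsp70 cycle, lay between 0.828 and 1.31. Hsph1, a nucleotide exchange factor of Hsp70, was 1.98-fold lower in antibody T cells (90 and 50 UMIs) and within 1.5-fold in the others. Against the Matrigel library, Hspd1, Hspe1 and Hsp90aa1 were 1.57-, 1.57- and 1.53-fold higher in IgG mesenchymal cells. In IgG macrophages their ratios to the Matrigel library were 1.56, 1.39 and 1.59.

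Hspb1, a small heat shock protein that binds actin and unfolded proteins, was found mainly in mesenchymal cells. Hspb1 stood at 280.5 CPM in antibody mesenchymal cells, 149.98 CPM in IgG mesenchymal cells and 44.02 CPM in Matrigel mesenchymal cells. It was 1.87-fold higher (1.79 to 1.96) in antibody than in IgG mesenchymal cells, and 3.41-fold higher (3.16 to 3.68) in IgG than in Matrigel cells. Macrophages held 3.12, 3.66 and 1.55 CPM in the antibody, IgG and Matrigel libraries, a level that free RNA could give. Unlike the Hsp70 pair, whose lowest mesenchymal level was in the IgG library, Hspb1 had its lowest in the Matrigel library.

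The difference between the antibody and IgG libraries was seen across the cells of a class and not in its highest cells alone. In the median antibody macrophage 0.995% of UMIs came from the 34 immediate early genes, against 0.634% in the median IgG macrophage and 0.632% in the median Matrigel macrophage. The 5th percentiles were 0.335%, 0.189% and 0.180% in the antibody, IgG and Matrigel libraries, and the 95th 2.16%, 1.43% and 1.53%. So the antibody macrophages were higher at the low end of the distribution as well as the high end, though the distributions overlap widely. In mesenchymal cells, with the libraries in the same order, the medians were 0.345%, 0.254% and 0.352%, with 5th percentiles of 0.131%, 0.118% and 0.113% and 95th percentiles of 0.777%, 0.506% and 0.709%. There the gap was larger at the high end than at the low end. In T cells the medians were 1.32%, 0.777% and 1.53%, the 5th percentiles 0.545%, 0.273% and 0.371%, and the 95th 2.53%, 1.67% and 3.61%, so the Matrigel T cells spread most widely. Thinned to 1000 UMIs, the median macrophage held 10 immediate early UMIs in the antibody library and 6 in each of the others, the median T cell 13, 7 and 12, and the median mesenchymal cell 3, 2 and 3. Thinning left out 82, 113 and 233 macrophages, 35, 19 and 26 T cells, and 14, 35 and 70 mesenchymal cells in the antibody, IgG and Matrigel libraries. Heat shock genes made up 0.269%, 0.270% and 0.224% of UMIs in the median macrophage and 0.219%, 0.235% and 0.184% in the median mesenchymal cell.

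**Figure D3:**
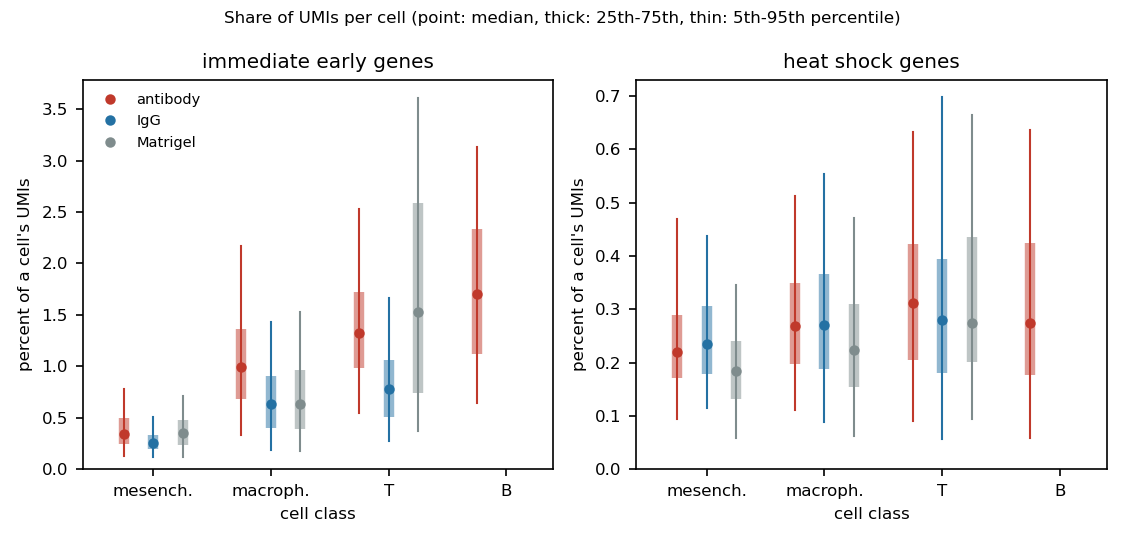
Percent of a cell's UMIs from the 34 immediate early genes (left) and the 10 heat shock genes (right) in each class, with antibody, IgG and Matrigel libraries from left to right (B cells: antibody library alone); points are medians, thick lines span the 25th to 75th and thin lines the 5th to 95th percentile of cells. For immediate early genes each of the 5 percentiles is higher in the antibody than in the IgG library in every class compared, with widely overlapping ranges, while the heat shock medians lie between 0.184% and 0.311% in all classes and libraries.

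Subsets of cells picked by the same markers in each library were also compared, without matching for depth. Median depths in the antibody, IgG and Matrigel libraries were 27066.5, 19515 and 16500 UMIs in mesenchymal cells with Inhba. In macrophages with Arg1 they were 5403, 3953 and 2804.5 UMIs. Mesenchymal cells with at least 2 UMIs of Inhba, the activin A subunit gene, had a median log2 ratio of 0.76 over the measured immediate early genes in antibody against IgG cells (312 and 961 cells), where the median over all genes was -0.08. Cells with at least 2 UMIs over the progenitor markers Pi16, Dpp4 and Cd34 had 0.68 (279 and 239 cells), against -0.10 over all genes. Among macrophages the medians were 0.58 in cells with Arg1, 0.70 in cells with Lyve1 or Folr2 and 0.66 in cells with Ccr2 or Ly6c2, against -0.16, -0.12 and -0.11 over all genes. For IgG over Matrigel the spread between subsets was wider, at -1.24 in Inhba cells (961 and 98 cells) and -0.44 in progenitor-marker cells (239 and 1636 cells). The macrophage subsets had -0.40, -0.17 and -0.23 in that comparison. These subsets can overlap and were chosen by genes that are none of the 44.

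**Figure D4:**
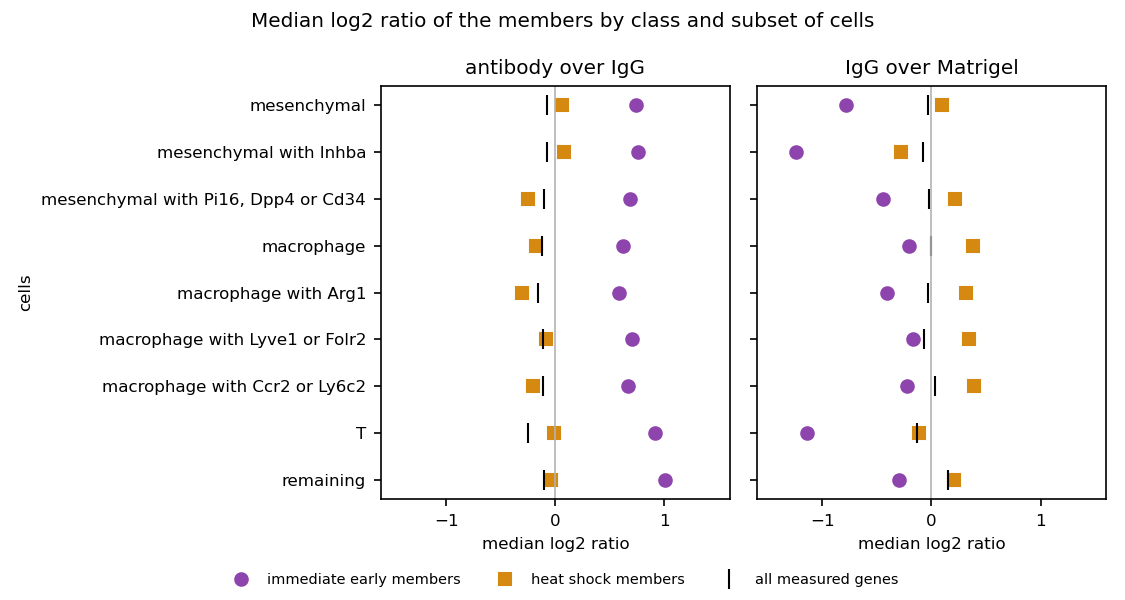
Median log2 ratio of the measured immediate early genes (circles) and heat shock genes (squares) in each class and subset of cells (rows), with the median over all measured genes as a tick; antibody over IgG at left and IgG over Matrigel at right. All circles at left lie between 0.58 and 1.005, and those at right between -1.24 and -0.17.

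The classes themselves differed in how much of these RNAs they held, as did the libraries. In the antibody library 19 of 34 immediate early genes had their highest CPM in B cells, 7 in macrophages, 7 in T cells and 1, Fosl1, in mesenchymal cells. Summed, the 34 genes took 1.74% of UMIs in B cells, 1.29% in T cells, 0.949% in macrophages and 0.383% in mesenchymal cells of that library. Without B cells to compare, 20 of 34 were highest in T cells of the IgG library and 25 of 34 in T cells of the Matrigel library. In B cells Junb stood at 2978 CPM, Ier2 at 1189 CPM, Dusp2 at 847 CPM and Egr1 at 383 CPM. Hspa1a and Hspa1b, at 142 and 229 CPM, also had their highest antibody level there, and Fosl1 and Hspb1 had 0 UMIs in the 831088 UMIs of B cells, which allows up to 3 counts. CPM is a share of each class's own UMIs, and the classes differ in depth per cell.

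Other genes of these pathways were followed in lists that were chosen with the earlier results known. Of 30 further immediate early genes, 13 of 30 measured were higher and 0 lower in antibody than in IgG mesenchymal cells, 9 and 2 of 30 in macrophages, and 13 and 4 of 29 in T cells, at median log2 ratios of 0.47, 0.32 and 0.32. Over all genes 9.88%, 6.97% and 13.8% were higher and 12.7%, 12.2% and 22.5% lower in these classes, with medians of -0.07, -0.12 and -0.25. In mesenchymal cells they included Cebpb, a factor of the acute phase response, at 89.0 and 37.3 CPM in antibody and IgG cells, and Errfi1, a feedback inhibitor of the EGF receptor, at 151 and 68.7 CPM. In macrophages they included Ppp1r15a, which restores translation after stress, at 204 and 92.3 CPM, and the kinase gene Sgk1 at 134 and 74.4 CPM. Against the Matrigel library, 1 of 30 was higher and 15 lower in IgG mesenchymal cells, 4 and 1 of 29 in macrophages, and 3 and 7 of 24 in T cells, where 16.6%, 13.2% and 24.1% of all genes were higher and 21.1%, 13.5% and 18.5% lower. Errfi1 and Pim1 were 3.38- and 2.75-fold lower in those mesenchymal cells, and Plk2 1.99-fold lower in macrophages. Irf1 and Bhlhe40 were 1.89- and 1.94-fold higher there.

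Further HSF1 targets and cytosolic chaperones showed 0 higher and 0 lower of 24 in antibody against IgG mesenchymal cells, 1 and 5 of 24 in macrophages, and 4 and 5 of 22 in T cells, at medians of -0.11, -0.25 and -0.33. These are near the medians of all genes given above, and 5 of 22 lower in T cells is near the 22.5% of all genes. Genes of the unfolded protein and integrated stress response had 1 of 15, 0 of 14 and 3 of 13 higher and 0, 0 and 2 lower in mesenchymal cells, macrophages and T cells, against the same shares of all genes. In IgG against Matrigel macrophages 5 of 14 of these were higher and 0 lower (all genes: 13.2% and 13.5%), with Pdia4 and Creld2, which act in folding in the endoplasmic reticulum, at 2.01- and 1.93-fold. In mesenchymal cells 4 of 15 were higher and 0 lower (all genes: 16.6% and 21.1%), with Asns, asparagine synthetase, at 2.66-fold. In T cells 1 of 12 was higher and 2 lower (all genes: 24.1% and 18.5%). Of the chaperone list 2 of 24 were higher and 1 lower in IgG against Matrigel mesenchymal cells, with Cryab 3.42-fold higher. The median of that list there was 0.10, against -0.03 over all genes. In macrophages 4 of 24 of the chaperone list were higher and 0 lower, and in T cells 3 of 19 and 2.

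Signs of RNA quality and of other cells moved with the libraries too. Mitochondrial genes made up 1.87%, 2.44% and 2.25% of UMIs in antibody, IgG and Matrigel mesenchymal cells, 2.01%, 2.72% and 2.97% in macrophages and 3.10%, 3.63% and 3.63% in T cells, lowest in the antibody library in each class. Malat1, a nuclear RNA, made up 1.28%, 1.08% and 1.31% in mesenchymal cells and 1.75%, 1.59% and 1.16% in macrophages. Ribosomal protein genes made up 26.2%, 18.8% and 18.4% in T cells, and 23 of 91 measured were higher in antibody than in IgG T cells, with a median log2 ratio of 0.43. Across cells of a library, Spearman's rho between the immediate early and the mitochondrial share of UMIs was -0.22, -0.20 and -0.41 in macrophages. It was -0.13, -0.33 and -0.35 in mesenchymal cells and -0.06, -0.11 and 0.12 in T cells. These values describe cells of the same library that were not matched for depth. Between the immediate early share and a cell's UMIs, rho was -0.33, -0.15 and -0.06 in antibody, IgG and Matrigel macrophages. It was 0.09, 0.04 and 0.16 in mesenchymal cells and -0.21, -0.37 and -0.23 in T cells. The sum of 2 haemoglobin genes was at 1194, 333 and 128 CPM in antibody, IgG and Matrigel macrophages, 16.7, 20.5 and 3.88 CPM in mesenchymal cells, 70.3, 34.6 and 7.24 CPM in T cells and 59.8, 138 and 52.8 CPM in the remaining cells. Macrophage markers were at 126, 139 and 224 CPM in mesenchymal cells, all 8 detected, against at least 17570 CPM in macrophages. The part of dissociation, of blood in the masses and of NK or cartilage cells in the differences was not tested. Without T cells that held NK markers, 5 of the 44 genes were higher in IgG over Matrigel, against 3 with them. Without mesenchymal cells that held cartilage genes, 3 were higher in that comparison, against 8 with them, and 23 were higher in antibody over IgG both ways.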

How the data were processed

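Single cells of 3 libraries were measured by droplet 3′ RNA sequencing. The authors deposited whole-number UMI counts per gene and cell barcode, not normalized. Cell Ranger 3.0.2 and genome build mm10 are listed per the submitters' processing notes, while the gene annotation and the way barcodes were called as cells were not given in the sources used here. Its counting keeps reads that map to 1 gene, which can lose or divide reads of near-identical copies. The 44 genes, the further lists and the subsets were chosen with earlier results of these data known.

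Of 6113 antibody, 6065 IgG and 9249 Matrigel barcodes, those with under 300 genes, under 500 UMIs or over 15% mitochondrial UMIs were left out (146, 107 and 26). Doublets were the highest Scrublet scores (scanpy 1.11.5, seed 1) at 0.8% per 1000 cells, which took 292, 289 and 682 barcodes, since the automatic threshold marked 4, 3 and 2. Cells were classed by counts: mesenchymal at 1% or more of UMIs from 3 collagen genes, macrophage by Csf1r or Adgre1, and T or B by 2 UMIs of their markers. No clustering was used. UMIs were summed per class and library and expressed as CPM.

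With 1 library per group no test was made. A gene was measured with 10 UMIs in 1 of the 2 libraries and called at a ratio of 1.5 or its inverse. Ratios have exact conditional binomial, levels exact Poisson intervals at 95%, for counting error only. Medians add 1 UMI to each sum. A level was marked as one that free RNA could give where it stayed below 10% of another class's in that library, and a count of 0 allows up to 3 counts. Matrigel T cells and IgG and Matrigel B cells were too few to serve as that other class. Levels of the Matrigel library were therefore not marked against its T cells. Of the further lists, the text names genes among the 5 with the largest absolute log2 ratio in mesenchymal cells and the 5 in macrophages, at 50 CPM or more. An item of these lists is not reported here. Python 3.11.15, numpy 2.4.6, scipy 1.17.1, pandas 2.3.3 and matplotlib 3.10.9 were used, and the computation of ratios and calls was tested on simulated data. Alternatives changed the scaling, depth, minimum, fold, classes, doublets and highest cells.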

Additional observations from a re-analysis of the deposited data

Results flagged for a closer look

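A few of the 44 genes passed 1.5-fold in opposite directions in different classes of the same comparison. The difference was not tested, since each group is 1 library, and the shares are near the background. For antibody over IgG this was 1 of 33 immediate early and 0 of 9 heat shock genes, against 3.66% of all genes, and for IgG over Matrigel 2 of 32 and 1 of 8, against 6.47% of all genes. For antibody over IgG, Gadd45b had a ratio of 0.639 in mesenchymal cells, 1.97 in macrophages and 2.04 in T cells. For IgG over Matrigel, its ratio was 2.03 in mesenchymal cells and 0.589 in T cells. Klf2 for IgG over Matrigel had a ratio of 0.317 in mesenchymal cells, 0.604 in macrophages and 1.65 in T cells, the last from 109 and 15 UMIs. Hsph1 for IgG over Matrigel had a ratio of 0.62 in mesenchymal cells and 1.56 in macrophages.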

How the results depend on the processing

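Of 176 alternative counts, 136 stayed within 1.5 times the count given and 40 did not. Of 116 alternative medians, 107 moved by 0.2 or less on the log2 scale and 9 by more. A reversal was looked for only in medians of at least 1.5-fold, and 0 of these reversed. Smaller medians of heat shock genes did change sign. For antibody over IgG they ranged between -0.153 and 0.139 in mesenchymal cells and between -0.0354 and 0.285 in T cells. For IgG over Matrigel the range was -0.18 to 0.312 in T cells. The counts over the 44 genes were 23 higher and 2 lower in mesenchymal cells, 21 and 0 in macrophages, 27 and 1 in T cells and 15 and 0 in all 3 classes for antibody over IgG. For IgG over Matrigel they were 8 and 26, 7 and 9, 3 and 25, and 2 and 6. At 2-fold, antibody over IgG had 14 higher and 0 lower in mesenchymal cells, 5 higher in macrophages, 16 higher and 0 lower in T cells, and 1 higher in all 3 classes. At that fold IgG over Matrigel had 3 and 17, 2 and 2, 1 and 16, and 0 and 2. With each gene's 10 highest cells left out, 4 were lower in mesenchymal and 0 in T cells for antibody over IgG, and for IgG over Matrigel 4 were higher in macrophages, 9 higher and 12 lower in T cells, and 1 higher in all classes. A fixed 10 cells is a larger share of a small class, so it lowers the smaller library more by construction. Scaling by the median of ratios gave 0 lower (antibody over IgG, mesenchymal) and 5 higher (IgG over Matrigel, T), and the mean over cells gave 5 for each of these. After thinning, antibody over IgG had 6 lower in mesenchymal and 3 in T cells, and IgG over Matrigel 4 higher in macrophages and 1 in all classes. Stricter classes gave 4 lower (antibody over IgG) and 4 higher (IgG over Matrigel) in mesenchymal cells, and 1 higher in all classes for the second. With doublets kept, 1 was lower in macrophages for antibody over IgG. Doublets kept and a minimum of 50 UMIs each gave 1 higher in all classes for IgG over Matrigel. With no minimum, 2 were lower in T cells for antibody over IgG, and for IgG over Matrigel 5 were higher in T cells and 4 in all classes. Of the alternatives chosen after seeing the data, leaving out T cells with NK markers (819 antibody, 149 IgG and 69 Matrigel cells kept) gave 5 higher in T cells, and leaving out mesenchymal cells with cartilage genes (479, 709 and 1982 kept) gave 3 higher in mesenchymal cells and 0 in all classes, both for IgG over Matrigel. The cause was not tested. The median log2 ratio of immediate early genes for antibody over IgG ranged between 0.58 and 0.81 in mesenchymal cells, 0.61 and 0.75 in macrophages and 0.77 and 1.25 in T cells over these settings. For IgG over Matrigel it ranged between -1.01 and -0.70, -0.24 and -0.12, and -1.31 and -0.61. No paired analysis was possible because each group is 1 library with no replicate number.

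What the libraries cannot show follows from their number. A difference between masses, mice or the handling of a library enters every ratio, BMP2 and IgG are given together against Matrigel alone, and the IgG library is in both comparisons. T cells of the Matrigel library held 138042 UMIs in all, so genes with few UMIs there were not detectable or had wide intervals. CPM is a share of a class's RNA, so fewer molecules of a gene and more of the others cannot be told apart.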

Other observations

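Among the 74 genes that were at least 1.5-fold higher in the antibody than in the IgG library in mesenchymal cells, macrophages and T cells, 3 others were chemokine genes. They were chosen for naming after their values were seen. Cxcl2, which attracts neutrophils, stood at 252 CPM in antibody and 54.7 CPM in IgG macrophages, and at 7.23 and 1.002 CPM in antibody and IgG mesenchymal cells, below 10% of the macrophage level. Cxcl1, its relative, was at 27.6 CPM in antibody and 2.82 CPM in IgG mesenchymal cells. Ccl2, which attracts monocytes, was at 683 CPM in antibody and 366 CPM in IgG macrophages, and at 204 and 99.1 CPM in antibody and IgG mesenchymal cells. In IgG over Matrigel, Cxcl2 was also among the 37 genes lower in all 3 classes, at 54.7 CPM in IgG and 235 CPM in Matrigel macrophages. Cxcl2 is itself an early gene of NF-kB signalling, as background.

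Tsc22d3, which encodes a leucine zipper protein induced by glucocorticoids, was also higher in all 3 classes of the antibody library, at 43.6 CPM in antibody and 19.6 CPM in IgG mesenchymal cells and 193 and 124 CPM in antibody and IgG macrophages. In T cells it was at 226 CPM in the antibody and 93.9 CPM in the IgG library. Of the further immediate early genes, Ppp1r15a, Rhob and Sgk1 were also among the 74.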
